A study of Homo sapiens with 16 samples.

Results

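The clustered protocadherin locus lies on the long arm of human chromosome 5, and its members here were all TOP2A cleavage cluster regions with their centre in chr5:140750000-141550000 of hg38. A cleavage cluster region (CCR) is a short stretch, about 150 bp long at the locus, in which DNA captured with TOP2A piled up. The 5 lists held 468 such CCRs of 1469949 in all, and the rest of chromosome 5 held 97710. By treatment the locus held 97 CCRs after DMSO, 60 after etoposide, 133 after genistein, 75 after mitoxantrone and 103 after p-benzoquinone. The rule takes CCRs by position and uses neither their density nor their values, although the locus itself was picked with earlier results of these data known. Just outside the edges the nearest CCRs had values of 1.96 to 36.31 on the alpha side and 4.4 to 45.41 on the gamma side. Just inside, the first CCRs of each list had values of 1.96 to 13.19 and of 3.93 to 29.5.

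All cells were K562, an established human leukaemia line of the blood lineage, with no genetic change introduced, and every culture received 0.05% DMSO. Topoisomerase II alpha (TOP2A) opens a transient break in both strands of DNA, and TOP2 poisons leave more of the enzyme covalently held at such breaks. Etoposide (25 µM), genistein (50 µM) and mitoxantrone (2 µM) were given for 1 h, and p-benzoquinone, a benzene metabolite, at 8 µM for 4 h. Vehicle cells were kept for one of these same times, which is not recorded for each library, so times may differ wherever a poison is set beside DMSO. The labels name 14 libraries of treated or vehicle cells and 2 of input DNA. The lists drew on pre-amplified libraries, 3 of DMSO, 3 of etoposide, 2 of genistein, 1 of mitoxantrone and 2 of p-benzoquinone. The mitoxantrone list was tied to its library by treatment name. Libraries of a treatment were pooled into 1 list, so no region has a replicate value, no p-value could be given, and every interval below is a 95% interval for counting error only.

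Clustered protocadherins are cell-surface proteins of the cadherin family that neurons use to tell their own branches from those of other cells. In the alpha (PCDHA) and gamma (PCDHG) clusters, each gene is a large variable exon with its own promoter, and its transcript is spliced to constant exons at the end of the cluster. The beta (PCDHB) genes are single exons with no shared constant part. Most variable promoters carry a conserved core element around the letters CGCT, and CTCF and cohesin loop chosen promoters to distant enhancers. The annotation has 15 genes in the alpha cluster (226 kb), 16 in the beta cluster (198 kb) and 22 in the gamma cluster (182 kb). Variable exons resemble each other in sequence, and how reads that match several copies were handled is not given in the sources used here.

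Promoters are shown first, because they are where the single genes of the locus are chosen for expression. RefSeq promoter sequences (GRCh38.p14) were matched for 47 of the 53 genes, each from 250 bases before to 50 bases after the start. A CCR overlapped 13 of these 47 promoters in at least 1 list. The lists held 4 after DMSO, 1 after etoposide, 4 after genistein, 2 after mitoxantrone and 5 after p-benzoquinone. Among 15859 promoters of protein-coding genes, 4.29%, 2.26%, 4.26%, 2.04% and 6.84% overlapped a CCR in the same lists. The shares of the 15859 with a CCR in at least 1 list, or in 2 or more, were not computed. These few hits are therefore read only as a description. PCDHB14, PCDHGA2 and PCDHGA8 overlapped CCRs of 2 lists each. Their 250 bases before the start are printed 5′ to 3′ on the plus strand, with capitals for the bases that a CCR covered in at least 1 list. They lie at chr5:141223093-141223342, chr5:141338510-141338759 and chr5:141392383-141392632.
PCDHB14: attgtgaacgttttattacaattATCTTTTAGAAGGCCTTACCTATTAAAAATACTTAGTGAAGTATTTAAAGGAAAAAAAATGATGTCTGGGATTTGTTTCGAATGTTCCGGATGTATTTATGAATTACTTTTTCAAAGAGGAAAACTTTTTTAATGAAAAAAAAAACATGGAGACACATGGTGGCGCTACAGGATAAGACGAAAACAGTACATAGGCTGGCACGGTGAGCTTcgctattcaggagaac
PCDHGA2: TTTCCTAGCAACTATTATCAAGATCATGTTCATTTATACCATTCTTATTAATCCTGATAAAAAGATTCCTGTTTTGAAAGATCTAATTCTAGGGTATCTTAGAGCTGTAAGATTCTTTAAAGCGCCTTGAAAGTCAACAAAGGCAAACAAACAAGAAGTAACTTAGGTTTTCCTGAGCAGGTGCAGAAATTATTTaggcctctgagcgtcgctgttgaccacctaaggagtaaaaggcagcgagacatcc
PCDHGA8: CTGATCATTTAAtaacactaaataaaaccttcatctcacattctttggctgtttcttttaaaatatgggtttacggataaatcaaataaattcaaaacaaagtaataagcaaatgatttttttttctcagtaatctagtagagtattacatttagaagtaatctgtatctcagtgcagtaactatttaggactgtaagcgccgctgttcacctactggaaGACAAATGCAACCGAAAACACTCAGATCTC
In PCDHB14, a genistein CCR (value 7.11) ran from 227 to 115 bases before the start and a mitoxantrone CCR (value 8.75) from 140 to 17 bases before it. The 2 CCRs shared 26 bases. The letters CGCT stood 64 bases before the start, within the mitoxantrone CCR, and again 16 bases before it, just past its end. In PCDHGA2, an etoposide CCR (3.72) ran from 319 to 145 bases before the start and a DMSO CCR (2.54) from 189 to 56, sharing 45 bases. Its CGCT, 41 bases before the start, lay outside both. On the other strand, where CGCT reads AGCG on the strand printed, it stood 130 bases before the start, within the DMSO CCR, and again 46 and 12 bases before it, outside both. In PCDHGA8 the CCRs of genistein (6.09) and p-benzoquinone (2.05) touched opposite ends of the 250 bases and covered 42 of them in all. Its CGCT, 49 bases before the start, and its AGCG, 54 bases before it, lay between them.

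The letters of these promoters set the family apart from other genes, whatever the CCRs. CGCT, searched on both strands, was in 45 of 47 protocadherin promoters (95.7%) and in 75.7% of the 15859. Longer words around it separated them more. GTGGCGCT on the gene's strand was in 25.5% against 0.668%, and GTCGCTGT in 23.4% against 0.284%. Both words contain CGCT, and both are among the 5 most frequent words of 8 letters in the 47, so their shares describe the family and test nothing. PCDHB14 holds the first in its covered part, and PCDHGA2 holds the second in its uncovered part. The letters CCCTC, searched on both strands, were in 21.3% against 72.3%. Median GC content of the 250 bases was 37.6% in the family and 62% in all promoters. These letter matches are descriptions, not binding sites.

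The first comparison asks whether TOP2A cleavage clusters were denser over the 800 kb of the locus than over the rest of chromosome 5. They were not detectably denser or sparser after any treatment. The locus held 97 CCRs after DMSO where the density of the rest would give 94.0, a ratio of 1.03 (0.837 to 1.26). After etoposide it held 60 against 55.9, a ratio of 1.07 (0.819 to 1.38). Genistein gave 133 against 130, or 1.02 (0.854 to 1.21). Mitoxantrone gave 75 against 62.9, or 1.19 (0.937 to 1.50), the highest of the 5. With p-benzoquinone there were 103 against 107, or 0.963 (0.786 to 1.17). All 5 intervals include 1. The counts leave room for a locus up to 1.26 times as dense as its chromosome after DMSO and up to 1.50 times after mitoxantrone.

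Other stretches of chromosome 5 of the same length vary more than these ratios do. Of 214 windows laid end to end, the locus ranked 86 by CCR density after DMSO, 73 after etoposide, 105 after genistein and 107 after p-benzoquinone, so it stood near the middle. After mitoxantrone it ranked 21, with 9.37 CCRs per 100 kb where the windows ran from 3.29 to 11.

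**Figure D1:**
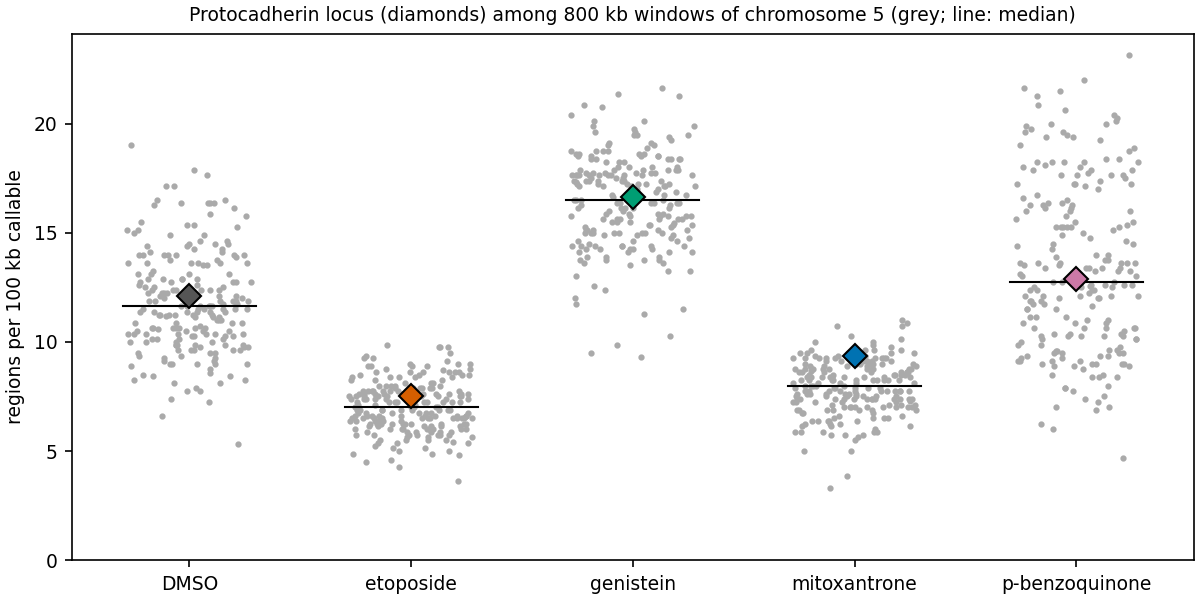
CCRs per 100 kb of callable sequence (vertical axis) in each list; grey points are windows of the length of the locus along chromosome 5, the line is their median and the diamond is the locus. The diamonds lie close to the median at 12.1, 7.50, 16.6 and 12.9 for DMSO, etoposide, genistein and p-benzoquinone, and above it for mitoxantrone at 9.37.

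Set against the 2 Mb on each side instead of the whole chromosome, p-benzoquinone moved most. Its flanks were dense, at 18.7 CCRs per 100 kb, and the locus stood at 0.689 of them (0.556 to 0.848). For DMSO the ratio to the flanks was 0.912 (0.727 to 1.13) and for etoposide 0.906 (0.677 to 1.20). Genistein gave 1.09 (0.897 to 1.32) and mitoxantrone 1.24 (0.951 to 1.60). After p-benzoquinone the locus was therefore sparser than these flanks beyond counting error, while its interval against the whole chromosome included 1. Windows of this length on chromosome 5 ran from 4.67 to 23.1 CCRs per 100 kb after p-benzoquinone. How often other windows stand as far from their own flanks was not examined. Whether the p-benzoquinone ratio differs from that of DMSO was not tested.

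The second comparison sets each poison against the vehicle, scaled to the rest of chromosome 5. No poison moved CCR density at the locus beyond counting error. Etoposide stood at 1.04 of DMSO (0.741 to 1.45) and genistein at 0.989 (0.755 to 1.30). Mitoxantrone stood at 1.16 (0.843 to 1.58) and p-benzoquinone at 0.933 (0.700 to 1.24). None was past 1.5-fold, and among the 213 other windows of this length 3.29%, 6.57%, 7.98% and 4.23% were. The 4 ratios share the DMSO list.

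The deposited value of each CCR, which behaves like a scaled number of reads but has no stated unit, was also close to that of the rest of the chromosome. Medians at the locus and elsewhere were 6.42 and 6.42 after DMSO, 7.46 and 7.79 after etoposide, and 13.21 and 13.26 after genistein. They were 13.62 and 13.29 after mitoxantrone and 4.34 and 4.83 after p-benzoquinone. In every list the interval of the locus median included the median elsewhere. For p-benzoquinone it ran from 3.62 to 5.23. Values can be compared only within a list, since the lowest value kept at the locus was 1.84, 1.96, 3.72, 3.88 and 1.82 in the same order of lists. The upper end was thin after p-benzoquinone at the highest of the cuts examined, with no adjustment for their number. Of 103 CCRs there, 4 exceeded the 90th percentile of the rest of the chromosome, a share of 3.88% (1.07 to 9.65), where 9.90% of the rest did so. In the other 4 lists this share was 8.27% to 13.3%. Above the upper quartile of the rest, the p-benzoquinone share was 21.4% (13.9 to 30.5), against 24.8%. Above the median it was 43.7% (33.9 to 53.8), against 49.2%. Both of these intervals include the share of the rest. How often other windows of this length have as thin an upper end was not examined.

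**Figure D2:**
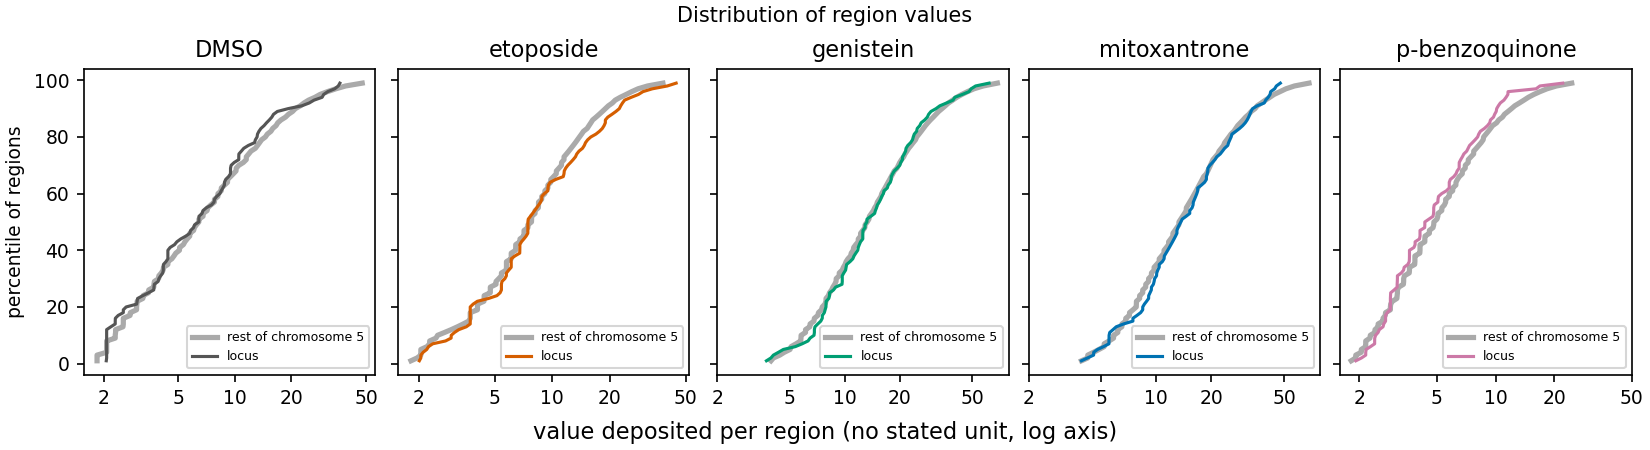
Percentile of CCRs (vertical axis) by deposited value (horizontal log axis, no stated unit) at the locus (colour) and on the rest of chromosome 5 (grey). The curves run close together over much of their range. For p-benzoquinone the locus curve lies to the left over most percentiles, with medians of 4.34 (3.62 to 5.23) and 4.83. For etoposide it lies to the right in the upper part, with 15.94 and 13.9 at the 80th percentile. For DMSO it lies to the left at the 85th percentile, with 14.7 and 16.9.

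Only the mitoxantrone list also carried an input signal in the authors' deposited table. Its median was 0.23 both at the locus and on the rest of the chromosome, and its highest value at the locus was 1.42. No input signal was listed for 20 of the 75 locus CCRs, 26.7% (17.1 to 38.1), against 20.0% of the rest. The deposited log2 value of treated over input had a median of 4.80 at the locus and 4.81 elsewhere. For the 20 CCRs with no input signal, the deposited p-values ran from 1.0e-13 to 0.00704.

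Inside the locus, the DMSO list was sparse in the beta cluster and dense in the gamma cluster. After DMSO the beta cluster held 13 CCRs where the rest of the chromosome would give 23.3, a ratio of 0.559 (0.298 to 0.956), and the gamma cluster held 33 against 21.4, a ratio of 1.54 (1.06 to 2.16). The alpha cluster was at 0.978 (0.639 to 1.43). These were the only 2 of 15 ratios of a cluster and a list whose interval left out 1. For scale, among 856 windows of 200 kb on chromosome 5, 6.78% had a DMSO interval below 1 and 7.71% one above 1. Ratios as far from 1 as these therefore also occur elsewhere on the chromosome.

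After etoposide the order was the same, with 0.886 (0.484 to 1.49) for alpha, 0.795 (0.397 to 1.42) for beta and 1.49 (0.897 to 2.33) for gamma. Genistein gave 1.03, 0.899 and 0.841, and p-benzoquinone gave 0.893, 1.10 and 1.02. Mitoxantrone was highest in the alpha cluster, at 1.35 (0.864 to 2.01), with 0.835 for beta and 1.12 for gamma. The share of 200 kb windows with an interval above or below 1 was 2.8% and 2.69% for etoposide, 4.67% and 5.96% for genistein, 2.34% and 2.57% for mitoxantrone, and 16.1% and 14.4% for p-benzoquinone.

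**Figure D3:**
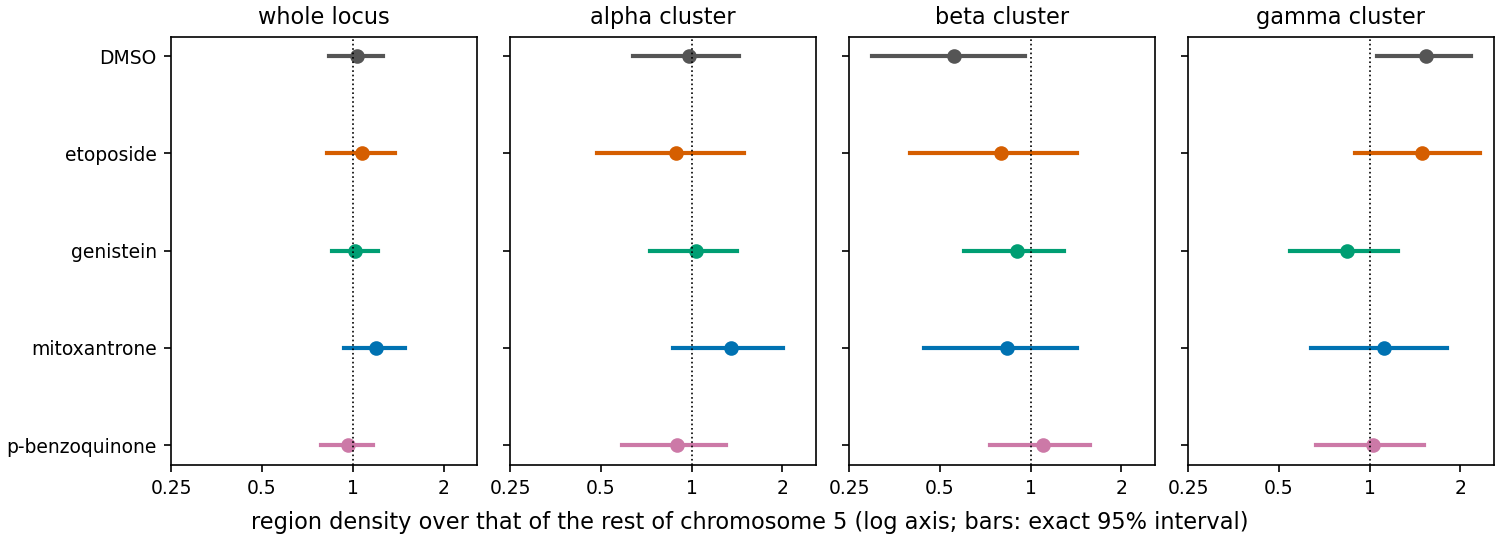
CCR density over that of the rest of chromosome 5 (horizontal log axis) for the whole locus and the 3 clusters in each list; points are ratios and bars exact 95% intervals. The DMSO points lie at 0.559 in the beta cluster and 1.54 in the gamma cluster, and the bars of the whole locus all cross 1.

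Set directly against each other, the gamma and beta clusters differed most after DMSO. Per kb the gamma cluster held 2.75 times as many CCRs as the beta cluster (1.41 to 5.70). The ratio was 1.87 (0.848 to 4.36) after etoposide and 1.34 (0.602 to 3.02) after mitoxantrone. After genistein and p-benzoquinone each list had 25 gamma and 29 beta CCRs, a ratio of 0.935 (0.525 to 1.65). For p-benzoquinone this depended on the values kept. With only values of at least 4 it had 16 gamma and 12 beta CCRs, a ratio of 1.45 (0.642 to 3.35), while genistein stayed at 0.930 (0.516 to 1.66). Relative to DMSO, the ratio of the whole list was 0.340 (0.147 to 0.783) for genistein and the same for p-benzoquinone. It was 0.680 (0.255 to 1.82) for etoposide and 0.485 (0.183 to 1.28) for mitoxantrone. With values of at least 4 the ratios relative to DMSO were 0.447 (0.184 to 1.08) for genistein and 0.696 (0.25 to 1.94) for p-benzoquinone, so both intervals then included 1. This contrast was chosen after the values were seen. Over DMSO, 1 of 12 ratios of a cluster and a poison left out 1, with no adjustment for their number. It was genistein in the gamma cluster, at 0.546 (0.311 to 0.947). How often a poison over DMSO interval leaves out 1 in other windows of this length was not examined, so this ratio is only a description.

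The DMSO contrast could be read within parts of its list. Values under 30 that are whole multiples of 1 step, and of no other, form a part, which may stand for 1 or several libraries. Values of 30 or more are in no part, so the strongest CCRs are left out. DMSO and p-benzoquinone had 2 parts each. In the DMSO part with the finer step, the gamma cluster held 14 CCRs and the beta cluster 3, a ratio per kb of 5.06 (1.41 to 27.5). In the one with the coarser step they held 11 and 6, a ratio of 1.99 (0.674 to 6.55). Both lay above 1, but the interval of the coarser part included 1. The parts come from the list in which the contrast was chosen, so they are not a separate test of it. With only values of at least 4 the ratio of the whole DMSO list was 2.08 (0.993 to 4.59), so its interval then reached 1. The p-benzoquinone parts went opposite ways, with 16 gamma and 23 beta CCRs in one (0.755, 0.373 to 1.49) and 5 and 1 in the other (5.43, 0.607 to 257).

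**Figure D4:**
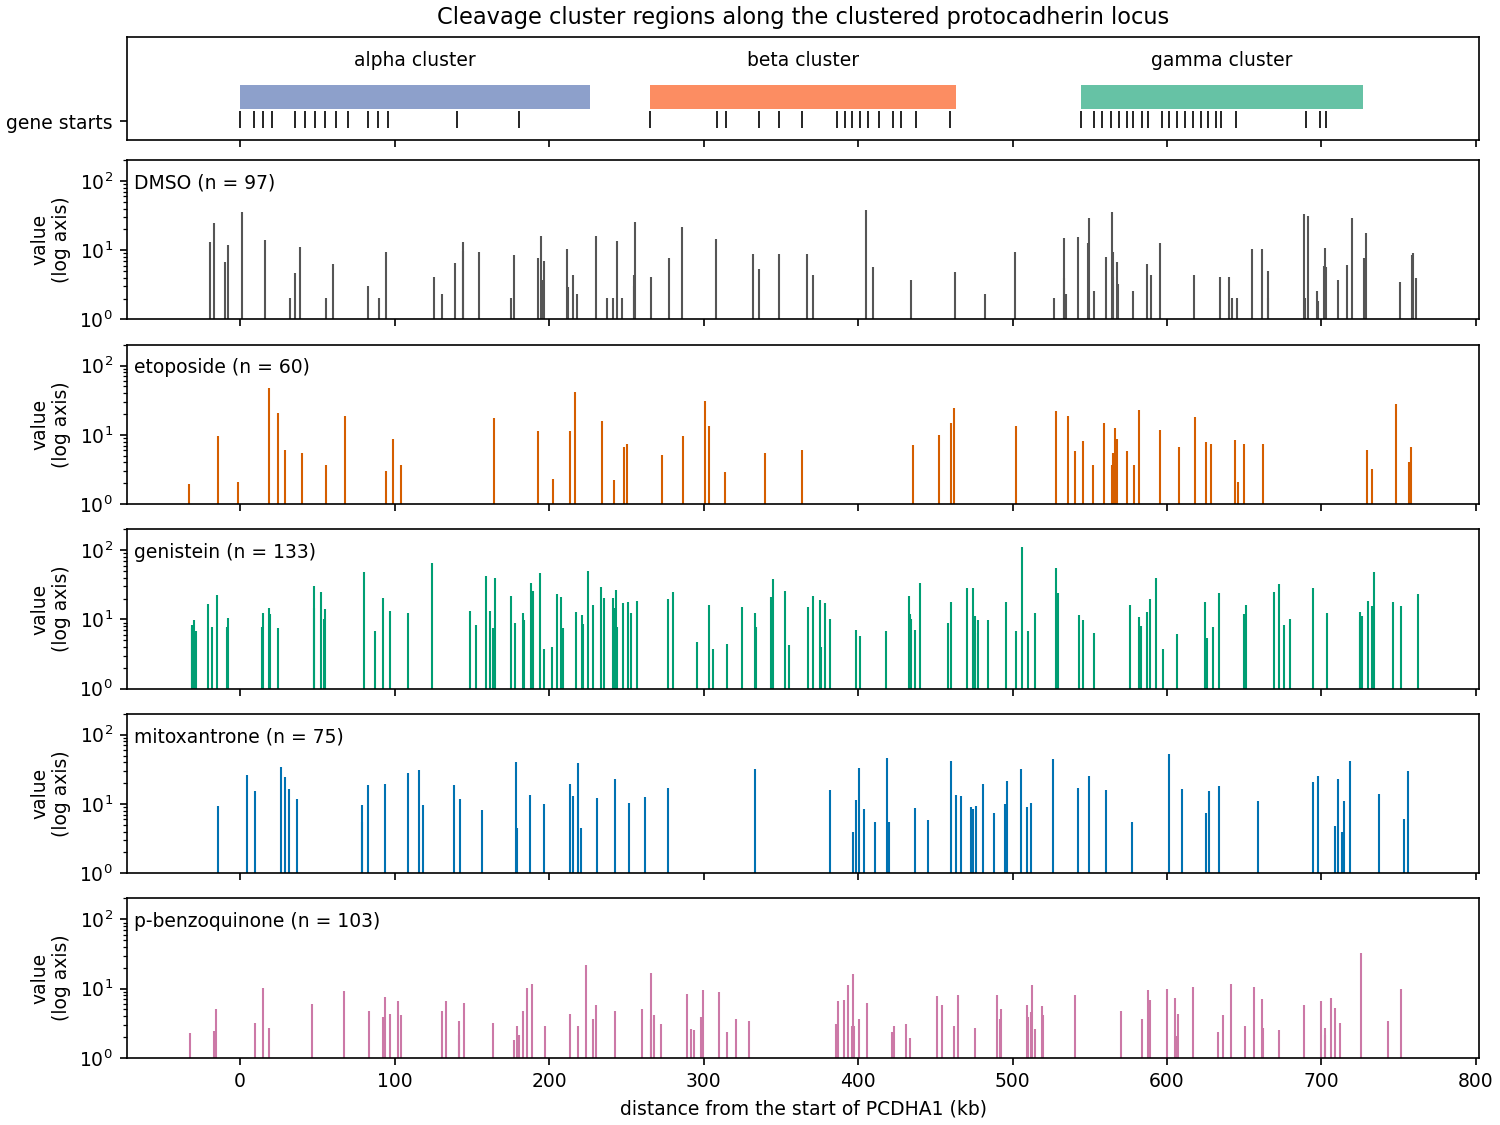
Position of each CCR along the locus as distance from the start of PCDHA1 in kb (horizontal axis) and its deposited value (vertical log axis), 1 row per list, with the 3 clusters and gene starts on top. The 13 DMSO CCRs of the beta cluster and the 33 of the gamma cluster stand out from the more even genistein row.

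Cut more finely, the locus has 9 segments, and 3 of the 45 ratios of a segment and a list left out 1. Shares of other windows of chromosome 5 of about the same length are given beside each, and they show that such ratios occur elsewhere too. One is the low DMSO ratio of the beta cluster, given above with its share of 6.78%. The second is the 81 kb between the beta and gamma clusters, where mitoxantrone had 14 CCRs against 6.38, a ratio of 2.19 (1.20 to 3.68). Of 2164 windows of 80 kb, 1.52% had a mitoxantrone interval above 1. Genistein had 15 CCRs there, a ratio of 1.13 (0.635 to 1.87). The third is the stretch from PCDHGA1 to PCDHGA12, which holds the variable exons of the gamma A and B genes. Etoposide had 19 CCRs there against 10.2, a ratio of 1.87 (1.13 to 2.92). Of 1227 windows of 140 kb, 2.77% had an etoposide interval above 1. From PCDHGC3 to the end of the gamma cluster, where the C-type genes and the constant exons lie, etoposide had 0 CCRs, which allows up to 1.43 times the density of the rest. DMSO had 9 there, a ratio of 2.07 (0.946 to 3.93), and mitoxantrone 7, a ratio of 2.41 (0.967 to 4.96).

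Summed over the 5 lists, with no interval given because lists can share positions, the C-type ends of both clusters had the higher ratio, though not in every list. The stretch from PCDHAC1 to the end of the alpha cluster held 64 CCRs against 48.4 (1.32), and that from PCDHA1 to PCDHA13 held 65 against 78.8 (0.824). In the gamma cluster the stretch from PCDHGC3 on stood at 1.34 and that before it at 1.10. Etoposide went the other way in both clusters, with 0.832 in the C-type end against 0.919 before it in alpha and 0 against 1.87 in gamma. Genistein in gamma had 0.829 against 0.844. Between the alpha and beta clusters the sum was 31 against 22 (1.41), and in the beta cluster it was 95 against 111 (0.853).

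Each of the 53 genes was then given the interval from its start to the start of the next gene of its cluster. The interval of the last gene of a cluster runs to the end of the cluster. Their median length was 6.35 kb, and for a variable gene the interval holds its exon and the space after it. Of these intervals, 52 held a CCR in at least 1 list and 8 held one in all 5. By list, 31 intervals had a CCR after DMSO, 28 after etoposide, 37 after genistein, 30 after mitoxantrone and 34 after p-benzoquinone. Lengths ran from 3.37 to 45.9 kb, and a longer interval has more room for CCRs of several lists. The same counts for other stretches of chromosome 5 of these lengths were not computed, so they only describe the locus. In the alpha and gamma clusters the last interval holds the constant exons. PCDHAC2, the last alpha gene, had 8 CCRs after DMSO, 4 after etoposide, 14 after genistein, 6 after mitoxantrone and 8 after p-benzoquinone in 45.9 kb. The annotated alpha constant region, PCDHACT, takes 33.4 kb of that interval and holds 30 of these 40, close to its share of the length. PCDHGC5, the last gamma gene, had 3, 0, 4, 5 and 4 in the same order, in 23.9 kb.

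PCDHGB1, a gamma B gene, had the highest CCR number per kb of the 53, and all of it came from 2 lists. After DMSO its interval of 4.92 kb held 5 CCRs with values of 35.51, 4.16, 9.46, 6.76 and 3.22. After etoposide it held 4, with 3.72, 5.42, 12.56 and 8.82. The other 3 lists had 0 there. The DMSO CCR of value 35.51, chr5:141350333-141350661, enclosed an etoposide CCR of value 3.72, centred 363 bases after the gene's start. Another pair overlapped farther on, with values of 6.76 and 8.82.

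PCDHB15, the last beta gene, was the second and the only one of the top 5 with a CCR in all 5 lists. The PCDHB15 interval of 3.97 kb ends with the cluster, while other beta intervals run on to the next gene. Its values were 4.84 after DMSO, 14.58 and 24.1 after etoposide, 17.93 after genistein, 42.15 after mitoxantrone and 2.89 after p-benzoquinone. PCDHB16, a beta gene between PCDHB8 and PCDHB9, had none after DMSO or etoposide. It had 1 after genistein (7.11), 3 after mitoxantrone (3.89, 11.34 and 33.06) and 3 after p-benzoquinone (16.43, 2.89 and 3.62).

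PCDHGC4, a C-type gamma gene, had CCRs in 2 lists, 3 after DMSO (6.01, 10.82 and 5.77) and 3 after p-benzoquinone (6.51, 2.73 and 2.16). PCDHGB7, another gamma B gene, had 1 CCR after each treatment except etoposide, with values of 4.05 after DMSO, 24.03 after genistein, 18.13 after mitoxantrone and 2.4 after p-benzoquinone. The genistein CCR of PCDHGB7 lay inside the mitoxantrone one. At the other end, the PCDHGB5 interval of 4.83 kb was empty in all lists. PCDHGA2 had 1 CCR (6.45, genistein), PCDHB12 had 1 (2.89, p-benzoquinone), PCDHGA4, the direct neighbour of PCDHGB1, had 1 (4.82, p-benzoquinone), and PCDHA7 had 2 (24.74 and 10.15, both genistein). These highest and lowest intervals are the ends of a ranking over small counts, and differences between neighbours in it were not tested.

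**Figure D5:**
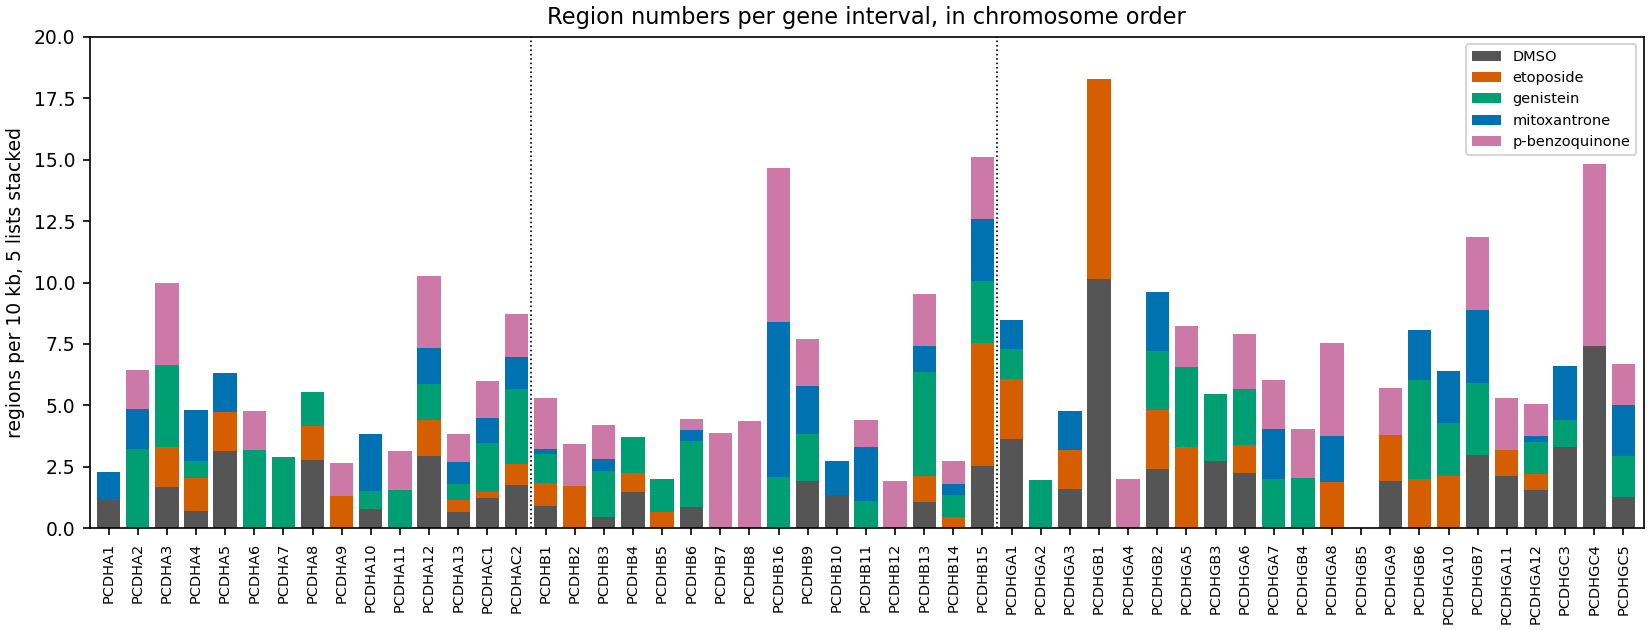
CCRs per 10 kb (vertical axis, bars from 0) in the interval of each clustered protocadherin gene in chromosome order, with the 5 lists stacked by colour and dotted lines between clusters. PCDHGB1 is the tallest bar at 18.3 and holds DMSO and etoposide only, and PCDHGB5 has no bar.

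Gene starts were examined next, since each variable exon has its own. In the first 3 kb of the 53 genes, which covers the variable exon, p-benzoquinone had 27 of its 81 cluster CCRs, a density of 1.41 times that elsewhere in the clusters (0.853 to 2.27). DMSO had 16 of 72, or 0.804 (0.431 to 1.42), and etoposide 13 of 44, or 1.18 (0.567 to 2.32). Genistein had 16 of 92, or 0.593 (0.323 to 1.03), and mitoxantrone 10 of 53, or 0.655 (0.293 to 1.32). All 5 intervals include 1. At 741 other gene starts of chromosome 5 measured against the rest of that chromosome, the ratios were 1.24 (1.11 to 1.38) for p-benzoquinone and 0.893 (0.797 to 0.997) for genistein, with 1.12, 0.984 and 0.902 for DMSO, etoposide and mitoxantrone. The p-benzoquinone list had the highest ratio and the genistein list the lowest in both sets.

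Few CCRs of the locus recurred from one treatment to another. Joined across the 5 lists they made 402 separate regions, of which 340 (84.6%, 80.7 to 88.0) came from 1 list, 58 from 2 and 4 from 3. On the rest of the chromosome 87.6% came from 1 list. Of the etoposide CCRs, 8 of 60 shared at least 1 bp with a CCR of the vehicle, 13.3% (5.94 to 24.6), against 8.85% elsewhere on the chromosome. For genistein it was 7 of 133 (5.26%, 2.14 to 10.5) against 6.96%, and for p-benzoquinone 6 of 103 (5.83%, 2.17 to 12.2) against 7.70%. For mitoxantrone it was 1 of 75 (1.33%, 0.0338 to 7.21) against 7.0%. For overlap with the vehicle, the interval of each poison includes the share elsewhere, so no difference was detectable at these counts. The etoposide share fell to 6.67% (against 6.51% elsewhere) when at least 50% of the shorter region had to overlap, and to 8.51% (against 6.39%) with values of at least 4. The genistein share was 3.08% (against 5.03%) with values of at least 4, and the p-benzoquinone share was 3.88% (against 5.49%) with the larger overlap.

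The 4 regions that 3 lists shared were 0.995% of the 402 (0.272 to 2.53). On the rest of the chromosome 1.48% of joined regions came from 3 or more lists. The 4 lay in gene intervals of all 3 clusters. In the PCDHA3 interval, chr5:140804558-140805095 had values of 48.2 after etoposide, 14.57 after genistein and 2.73 after p-benzoquinone, and 134 bp lay in all 3. That etoposide value was the highest of its list at the locus, reached by 0.338% of the rest of the chromosome. In the PCDHB15 interval, chr5:141246067-141246406 had 14.58 after etoposide, 17.93 after genistein and 42.15 after mitoxantrone, with 11 bp in all 3. About 2 kb farther on in PCDHB15, chr5:141248482-141248857 had 4.84 after DMSO, 24.1 after etoposide and 2.89 after p-benzoquinone, which overlapped in a chain with no base in all 3. In the PCDHGA6 interval, chr5:141375267-141375597 had 4.39 after DMSO, 20 after genistein and 6.76 after p-benzoquinone, again with no base in all 3. The 2 regions of PCDHB15 had no list in common except etoposide.

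The strongest CCRs of each list lay in different places. The highest genistein value was 111.48, in a region of 1198 bp at chr5:141291676-141292873 between the beta and gamma clusters. Of the genistein CCRs on the rest of the chromosome, 0.0990% were as high, and a mitoxantrone CCR overlapped it. The second genistein value was 64.73, in the PCDHA13 interval. After DMSO the highest were 37.56 in the PCDHB9 interval, which a p-benzoquinone CCR overlapped, and 36.21 in PCDHA1, centred 1153 bases after its start. After mitoxantrone they were 53.5, just upstream of PCDHGB4 (centre at -256 bases from its start), and 45.71 in the PCDHB11 interval. After p-benzoquinone the highest were 33.08 at chr5:141511651-141512127, at the constant end of the gamma cluster, and 22.21 at the constant end of the alpha cluster. The second etoposide value, 42.14, lay in the PCDHAC2 interval.

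Genes that are not protocadherins take little of the locus. TAF7, a subunit of a general transcription factor, had 2 CCRs, both after DMSO, and SLC25A2, a mitochondrial carrier, had none in any list. The part of DIAPH1, an actin regulator, that lies inside the edge had 20 in all, from 2 after p-benzoquinone to 6 after genistein.

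Non-clustered protocadherins give the family a comparison outside the locus, although 3 of the 12 measured (PCDH1, PCDH12 and CDHR2) lie elsewhere on chromosome 5. Cover is the covered share of a gene with 2 kb on each side, divided by the genome mean of the list, so that 1 is the mean. Of 18969 protein-coding genes, 48.4% had cover above 1 after DMSO, 42.7% after etoposide, 41.4% after genistein, 40.6% after mitoxantrone and 54.7% after p-benzoquinone. Of these 12, 2 were above 1 after DMSO, 9 after etoposide, 6 after genistein, 7 after mitoxantrone and 4 after p-benzoquinone. Their median cover was 0.817, 1.29, 1.03, 1.12 and 0.758 in that order, where all genes had 0.976, 0.865, 0.891, 0.844 and 1.09. Some of the 12 rest on few CCRs, with 0 to 3 a list in PCDH20 and 0 to 2 in PCDH8 and PCDH18. For PCDH9, one of the longest, cover was 0.764 after DMSO, 1.21 after etoposide, 0.965 after genistein, 1.13 after mitoxantrone and 0.568 after p-benzoquinone, from 71 to 139 CCRs a list.

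By the same measure the 53 clustered genes had a median cover of 1.43 after DMSO, 0.816 after etoposide, 0.862 after genistein, 1.24 after mitoxantrone and 1.21 after p-benzoquinone. Above 1 were 34, 17, 20, 42 and 36 of them. Alpha and gamma gene bodies run through to the shared constant exons and overlap each other, so the same CCRs count for many of these genes. The 12 genes for looping and silencing at the clusters, among them CTCF, the cohesin subunits RAD21 and SMC3, the silencing factor SMCHD1 and the sister enzyme TOP2B, had 5, 0, 7, 5 and 2 above 1. In CTCF the cover was 0.692 after DMSO, 0.955 after etoposide, 0.439 after genistein, 1.69 after mitoxantrone and 0.940 after p-benzoquinone. Their medians were 0.917, 0.618, 1.13, 0.860 and 0.789.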

How the data were processed

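TOP2A was immunocaptured from sonicated lysates of K562 cells and its bound DNA was freed with a phosphatase before sequencing, per the labels' protocols. The submitters' processing notes name Bowtie2 2.1.0, SAMtools 0.1.19 and hg38. What called the regions, and at which thresholds, is not given in the sources used here. For each treatment the authors deposited 1 pooled list, in which every region has a score with no stated unit. Only the deposited mitoxantrone list also gives an input signal, a log2 value of treated over input and, where the input is 0, a p-value. The lists give called regions and no read totals, so the depth of each library is unknown. Reads carry no molecular identifiers and PCR copies are not independent, so intervals cover counting error only.

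Overlapping entries of a list were joined, and 5 of the 468 locus regions carry several scores, of which the highest was used. Starts were read as counted from 0 and are printed from 1. Density was the number of region centres per callable base, where a bin of 100 kb is callable if any list has a region in it. Ratios have exact binomial 95% intervals (Clopper-Pearson), except the ratios of gamma over beta relative to DMSO, whose intervals are log-normal. Windows needed at least 80% and genes at least 50% of callable sequence. Gene positions and promoter sequences were those of RefSeq for GRCh38.p14, and of several promoter entries the most upstream was used. Library parts were read from scores under 30 that are whole multiples of 1 step, and of no other, within a tolerance of 0.02. They left out 13.9% to 31.8% of the values of a list, among them every score of 30 or more.

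Named with values are the last interval of the alpha and gamma clusters, the 5 highest and 5 lowest gene intervals by scaled number per kb, regions in 3 or more lists, the 2 strongest regions of each list, and promoters that overlap regions of 2 or more lists. The genes named from the 2 gene lists outside the locus, TAF7, SLC25A2, DIAPH1 and the letter words were chosen after their values were seen. The members and lists were chosen with earlier results of these data known. Computations ran in Python 3.11.15 with scipy 1.17.1 for intervals, numpy 2.4.6 and pandas 2.3.3 for tables, and matplotlib 3.10.9 for figures. The density, interval and step calculations were tested on simulated data.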

Additional observations from a re-analysis of the deposited data

How the results depend on the processing

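Of 134 recomputed values, 128 stayed within the interval of the reported value and 6 moved out of it. The locus ratio after p-benzoquinone was 0.689 against the 2 Mb on each side. In the 2 etoposide parts with the finer step the locus ratio was 0.209 and 0.555, and the ratio over DMSO was 0.199 and 0.529, but these parts hold 1 and 2 locus components. The gamma over beta ratio of p-benzoquinone was 5.43 in its second part, from 5 and 1 CCRs. The cause was not tested for p-benzoquinone. The gamma over beta alternatives were chosen after seeing the data. The other settings (values of at least 4, other comparators and bins, covered bases, no joining, the larger parts) kept the locus ratio between 0.908 and 1.07 for DMSO, 0.972 and 1.10 for genistein, and 1.15 and 1.27 for mitoxantrone. Cluster ratios with 5 kb added on each side kept within 0.532 to 1.59. With the locus taken from the first alpha gene to the end of the gamma cluster, an alternative chosen after seeing the data, no ratio moved. No paired analysis was possible because each treatment is 1 pooled list with no test. For the same reason no replicate could be left out. Counts of 11 to 38 CCRs per cluster and list limit what can be told apart, and the depth behind them is unknown.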

Other observations

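The longest stretch of the locus with no CCR in any list was 10.8 kb long and ran from the end of the PCDHA9 interval across the start of PCDHA10 in the alpha cluster. Stretches of 10.0 kb in the PCDHAC1 interval and 9.04 kb in the PCDHGA12 interval followed. Of the gaps between joined CCRs on chromosome 5, 0.642%, 0.862% and 1.27% were as long. The median gap was 1.29 kb at the locus and 1.17 kb on the chromosome.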
